A study of Mus musculus with 15 samples.

Results

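The genes described here encode the liver-made proteins of the complement system, of blood clotting and fibrinolysis, and secreted protease inhibitors and carriers that travel in plasma with them. They were chosen by name, 44 symbols in all, and each was found on 1 of the 19464 rows of the deposited table. The list holds 17 complement genes, 20 genes of coagulation and fibrinolysis and 7 other secreted protein genes (Vtn, Hrg, Ahsg and the 4 Itih genes). Expression was measured by RNA sequencing of total liver RNA in 15 libraries. There were 4 libraries each of wildtype and of Stab1-/- mice aged 2 weeks, and 4 of wildtype and 3 of Stab1-/- fetal livers at embryonic stage E17.5, and the labels give the mixed strain C57BL/6N;129SvJ for every group. Stab1 encodes Clever-1, a scavenger receptor of endothelial cells and macrophages, and the knockout lacks it from all cells of the body, not from the liver alone. The labels do not say whether wildtype animals were littermates of the knockouts. No treatment is given for any group. The p-values measure the spread between these samples.

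Levels are given as RPKM, read counts scaled to the length of the gene and to the library's total of reads counted on genes. This unit allows levels of different genes to be set side by side. The reads counted on genes per library, in units of 1000 reads, ranged from 9659 to 10964, and no member gene had fewer than 61 reads in any library. Fold changes are log2 values fitted by the quasi-likelihood test of edgeR with TMM scaling, and a gene is called when its p-value, adjusted by the Benjamini-Hochberg method over all genes tested, is under 0.05. The targeted gene was lower in each Stab1-/- library. Stab1 stood at 0.862, 0.911, 1.54 and 1.05 RPKM in the 4 Stab1-/- libraries at 2 weeks and at 7.30 to 11.03 RPKM in wildtype. At E17.5 it stood at 4.29, 3.60 and 5.23 RPKM in the 3 Stab1-/- libraries and at 14.9 to 21.8 RPKM in wildtype, so the deposited reads still covered the gene in the knockout. The log2 fold change was -3.19 at 2 weeks and -1.91 at E17.5 (adjusted p = 5.15e-06 and 0.00101).

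Complement is a chain of plasma proteases and binding proteins that tags microbes and cells and can end in a pore through a membrane. It is started by recognition proteins such as the mannose-binding lectins, runs through C3 as its centre, and is held back by inhibitors. Clotting is a chain of the same design, in which vitamin K dependent proteases activate each other until thrombin turns fibrinogen into fibrin, and fibrinolysis removes the clot. Hepatocytes make most of these proteins. In the fetus the liver is also the place where red cells and platelets are formed, so fetal liver RNA holds a large share from blood-forming cells.

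The hepatocyte identity of the tissue was examined with 12 hepatocyte marker genes chosen apart from the 44 genes. Their summed level had a median of 107580 RPKM in wildtype and 97130 RPKM in Stab1-/- at 2 weeks, and of 71718 and 78587 RPKM at E17.5, and no marker was at or under 3 reads throughout a group. The 44 genes took a median of 8.91% of all reads on genes in wildtype at 2 weeks (range 8.25% to 9.73%) and 7.88% in Stab1-/- (6.84% to 8.25%). At E17.5 they took 5.77% in wildtype (5.12% to 6.06%) and 5.93% in Stab1-/- (5.43% to 7.08%). By level per length, the highest member was Ahsg, which encodes the plasma carrier fetuin-A and stood at 23594 ± 1567 RPKM in wildtype at 2 weeks (SD, n = 4). Next by RPKM in all 4 groups came Fgb and Fgg, the chains of fibrinogen, at 2312 ± 295 and 2072 ± 284 RPKM in wildtype at 2 weeks. The lowest member in wildtype at 2 weeks was C6, a pore component of complement, at 7.06 ± 1.82 RPKM, so the levels of the list spanned more than 3 powers of 10 as drawn in the plot of levels.

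**Figure D1:**
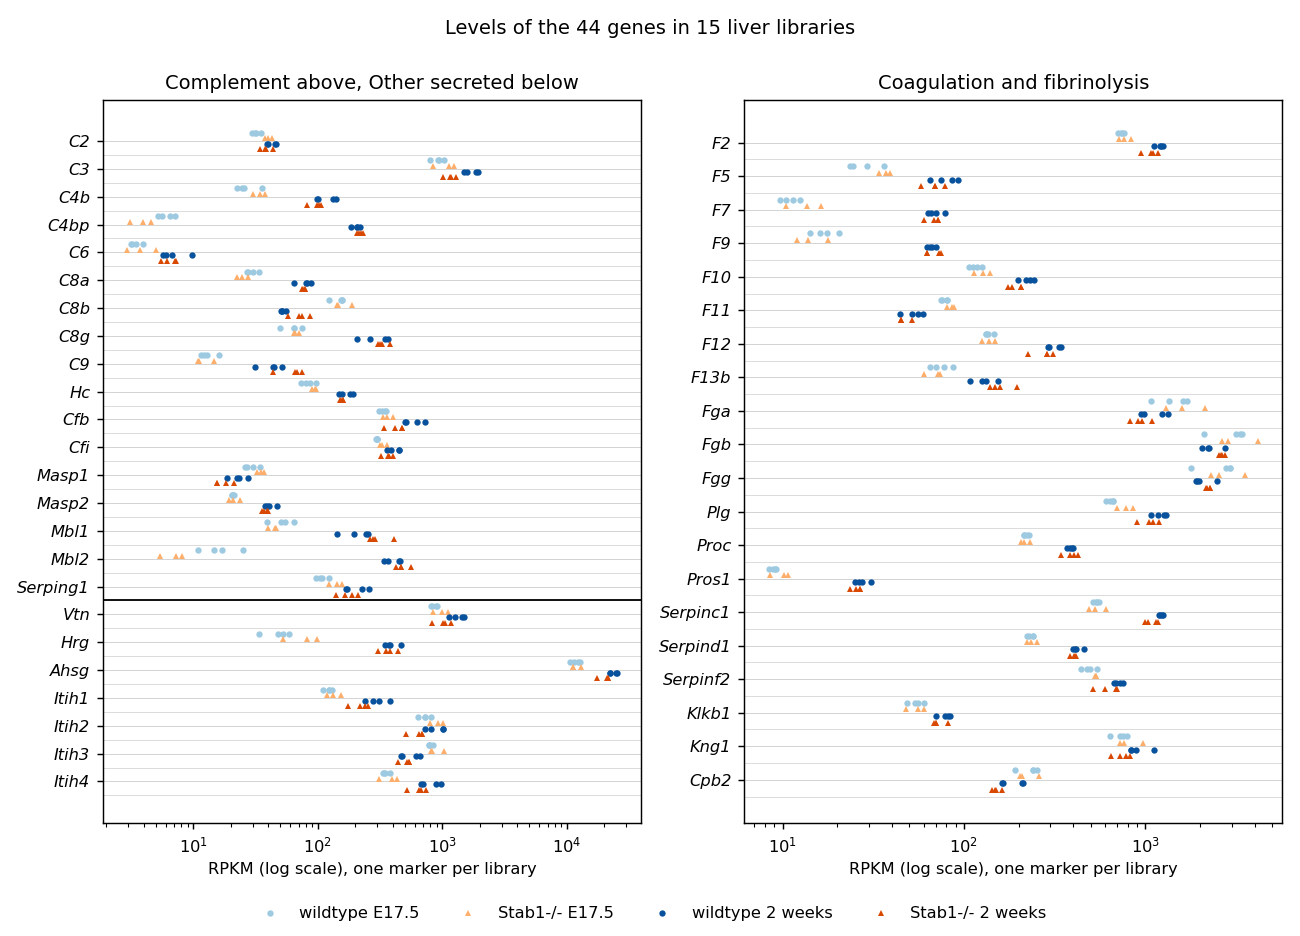
RPKM of each of the 44 genes on a log axis, with 1 marker per library (wildtype circles, Stab1-/- triangles, E17.5 light, 2 weeks dark). C4bp and Mbl2 show the widest gap between ages, with wildtype means of 6.09 and 16.9 RPKM at E17.5 and of 203 and 401 RPKM at 2 weeks, while C8b, F11 and Itih3 lie to the left at 2 weeks.

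The change from fetal liver to the liver of 2-week-old mice was examined first in wildtype. Of the 44 genes, 36 were called higher and 1 lower at 2 weeks, and their median log2 fold change was 1.29, beside -0.01 over all 13369 genes tested. Calls were common at this comparison. Over all genes, 71.9% were called in either direction, 34.9% higher and 37% lower at 2 weeks. The choice of scaling matters here, because scaling by library totals in place of TMM moved the median of all genes to -0.38 and the members' median to 0.92. On that scale 41 members were called, 35 higher and 6 lower (74.3% of all genes), and limma on log2(RPKM + 0.1) called 40, 35 higher and 5 lower (74.2% of all genes). Markers of other cells moved with age as well. All 10 erythroid markers found in the table were called lower at 2 weeks, and their summed level went from 18925 to 21205 RPKM at E17.5 to between 383 and 1104 RPKM at 2 weeks in wildtype. The 10 megakaryocyte markers were all called lower too, and 11 of the 12 hepatocyte markers were called higher. A smaller number of cells of one kind and less RNA per cell cannot be told apart in bulk tissue, and the part of cell composition in the changes of the 44 genes was not tested.

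The recognition proteins and proteases of the lectin pathway held some of the widest changes. Mbl2, which encodes mannose-binding lectin C, stood at 17.1, 25.0, 14.6 and 10.9 RPKM in the 4 wildtype livers at E17.5 and at 454.6, 447.6, 362 and 340.0 RPKM at 2 weeks. The groups lay far apart, and the log2 fold change was 4.93 ± 0.22 (SE, adjusted p = 1.85e-09), a 30.4-fold rise. Mbl1, which encodes the related mannose-binding lectin A, rose from 52.2 ± 10.7 to 207.8 ± 50.1 RPKM, by 2.35 ± 0.18 on the log2 scale. At E17.5 the Mbl2 level was thus 0.317 ± 0.048 of the Mbl1 level, and at 2 weeks it was 1.97 ± 0.27 times it. Masp2, the protease that these lectins use to cut C4 and C2, rose by 1.34 ± 0.10. Reads covered only 44.7% to 45.1% of the length of Masp2 in each library, so its value stands for a part of the gene. Masp1, the partner protease of Masp2, was not called (29.5 ± 3.9 RPKM at E17.5 and 22.9 ± 3.6 at 2 weeks, log2 fold change 0.01, adjusted p = 0.965). Scaled by library totals, the fold change of Masp1 was -0.36 and was called.

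All 4 genes of the C3 convertases, the enzymes that split C3, were called higher. C3 stood at 923.9, 797.9, 1032 and 935.6 RPKM in wildtype fetal livers and at 1574, 1501, 1922 and 1870 RPKM at 2 weeks, a rise of 1.26 ± 0.14 on the log2 scale. C4b, which supplies C4, rose most of these genes, from 27.1 ± 5.7 to 118 ± 22 RPKM (2.49 ± 0.19), and Cfb, the factor B of the alternative pathway, rose by 1.19 ± 0.15. C2, the partner of C4, rose by 0.78 ± 0.11. C4b has a near-identical copy, C4a, so reads of the 2 genes may have been shared out unequally, and C2 and Cfb lie 0.1 kb apart on chromosome 17 on the same strand, where reads past a gene's end may count for its neighbour.

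The complement inhibitors were also called higher, by very unequal amounts. C4bp, the C4b-binding protein that breaks up the C3 convertase, stood at 5.57, 7.11, 5.23 and 6.45 RPKM at E17.5 and at 204.8, 205.6, 184 and 218 RPKM at 2 weeks in wildtype. No other member moved as far. The log2 fold change was 5.42 ± 0.13 (adjusted p = 3.52e-11), a 42.9-fold rise. Serping1, the C1 inhibitor, rose by 1.31 ± 0.16, and Cfi, the protease that degrades C3b, rose by 0.84 ± 0.12.

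The terminal genes, whose proteins assemble into the pore, did not move together. C5, which Hc encodes in the mouse, rose by 1.37 ± 0.13 and C6 by 1.40 ± 0.18, while C9 rose from 13.2 ± 2.0 to 42.9 ± 8.4 RPKM (2.07 ± 0.17). A split was seen within C8, a protein built of an alpha, a beta and a gamma chain. C8a stood at 27.1, 30.1, 27.6 and 33.9 RPKM in wildtype fetal livers and at 80.7, 64.6, 81.9 and 88.4 RPKM at 2 weeks. C8g stood at 64.0, 75.2, 64.0 and 49.2 RPKM and then at 349, 368, 261 and 207 RPKM. C8b took the opposite course, from 152, 157, 157 and 123 RPKM at E17.5 to 51.0, 52.0, 55.8 and 51.5 RPKM at 2 weeks. Each of the 3 genes had groups that did not overlap, with log2 fold changes of 1.78 ± 0.13, 2.59 ± 0.18 and -1.12 ± 0.11. C8b was the only member called lower in wildtype with TMM scaling (adjusted p = 1.64e-06), and its direction was the same under each alternative. The ratio of C8a to C8b went from 0.205 ± 0.048 to 1.5 ± 0.20. C8a lies on chromosome 4 at 104815679 to 104876398 on the minus strand and C8b at 104766317 to 104804548 on the plus strand, so their ends face each other across 11.1 kb.

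**Figure D2:**
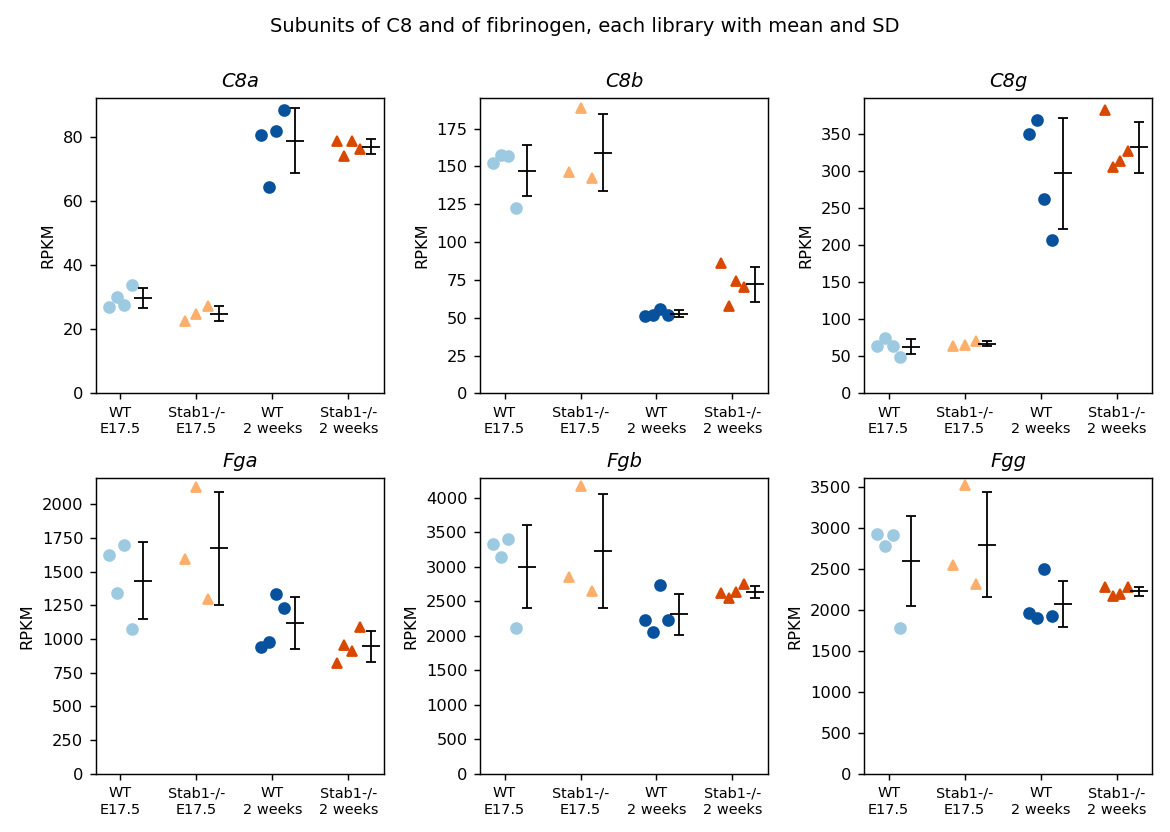
RPKM of the 3 chains of C8 (top) and the 3 chains of fibrinogen (bottom) in each library, with the mean and SD beside each group. C8a and C8g rise from E17.5 to 2 weeks in both genotypes and C8b falls, while the fibrinogen chains keep overlapping ranges in wildtype.

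None of the 3 fibrinogen chains was called with age in wildtype. Fga stood at 1621, 1343, 1696 and 1074 RPKM at E17.5 and at 940.9, 978.5, 1331 and 1231 RPKM at 2 weeks. Fgb stood at 3336, 3149, 3402 and 2112 RPKM and then at 2225, 2055, 2737 and 2233 RPKM. Fgg went from 2928, 2776, 2913 and 1777 RPKM to 1965, 1896, 2496 and 1930 RPKM. In all 3 chains wildtype replicate 4 was the lowest fetal library, and the 2 ages overlapped. With TMM scaling the log2 fold changes were 0.01, -0.01 and 0.04 with standard errors of 0.18, 0.17 and 0.18, and none was called, whereas library totals gave -0.36, -0.38 and -0.33 and called Fgb alone. The ratio of Fgb to Fgg was between 1.08 and 1.21 in all 15 libraries. The 3 genes are neighbours on chromosome 3, with Fga lying between Fgg and Fgb, 6.5 kb from the latter.

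The vitamin K dependent proteins were all called higher in wildtype at 2 weeks, 6 of 6 with groups that did not overlap. Over all genes tested, each 2-week wildtype library stood above each fetal one for 21.1% and below for 48%. F7, which starts clotting together with tissue factor, rose from 11.02 ± 1.19 to 69.6 ± 6.7 RPKM (log2 fold change 3.03 ± 0.12). F9, the factor missing in hemophilia B, rose from 17.1 ± 2.6 to 66.1 ± 3.2 RPKM (2.32 ± 0.12). Pros1 (protein S), F10, Proc (protein C) and F2 (prothrombin) rose by 1.99, 1.31, 1.18 and 1.06, and F2 was the most abundant of them at 739 ± 24.5 RPKM in fetal and 1197 ± 58.5 RPKM in 2-week-old wildtype livers. F7 and F10 are neighbours 1.5 kb apart on chromosome 8. The level of F7 was 0.095 ± 0.012 of that of F10 at E17.5 and 0.311 ± 0.011 of it at 2 weeks.

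Among the other clotting genes, F5, the cofactor of factor X, rose by 1.86 ± 0.17 and F13b, a subunit of the enzyme that crosslinks fibrin, by 1.15 ± 0.12. The inhibitors Serpinc1 (antithrombin) and Serpind1 (heparin cofactor II) rose by 1.55 ± 0.10 and 1.22 ± 0.10. Of the contact system, F12, Klkb1 (plasma kallikrein) and Kng1 (kininogen) rose by 1.57, 0.89 and 0.70. F11 did not pass the test at 78.0 ± 3.1 RPKM in fetal and 52.8 ± 6.3 RPKM in 2-week-old livers (log2 fold change -0.20, adjusted p = 0.129). Its RPKM ranges did not overlap, and it was called lower when scaled by library totals. F11 and Klkb1 arose from a common gene and lie 4.7 kb apart, and the ratio of Klkb1 to F11 went from 0.702 ± 0.069 to 1.5 ± 0.23. In fibrinolysis, Plg (plasminogen) and Serpinf2 (alpha-2-antiplasmin) rose by 1.27 ± 0.12 and 0.90 ± 0.11, and Cpb2, whose product protects the clot, was not called (0.04 ± 0.13, adjusted p = 0.782) and was called lower with library totals (-0.32).

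Of the other secreted proteins, Hrg, which encodes histidine-rich glycoprotein, changed most. It stood at 58.5, 48.0, 52.0 and 33.9 RPKM in fetal and at 382, 345, 464 and 370.4 RPKM in 2-week-old wildtype livers, a rise of 3.38 ± 0.18 on the log2 scale. Its neighbours on chromosome 16, Ahsg and Kng1, at 51.6 and 96.2 kb from it, rose by 1.36 and 0.70. Vtn (vitronectin) rose by 1.0 ± 0.13. The 4 Itih genes belong to the family of the inter-alpha-trypsin inhibitor heavy chains. Itih1, Itih4 and Itih2 rose by 1.68, 1.58 and 0.67, of which the call of Itih2 was lost with library totals, and Itih3 was not called, at 798.9 ± 31.9 RPKM in fetal and 555 ± 99 RPKM in 2-week-old livers (-0.16 ± 0.15, adjusted p = 0.349), where its RPKM ranges did not overlap. Itih3 was called lower with library totals (-0.53) and by limma. Itih3 and Itih4 are 6.2 kb apart on chromosome 14, and the ratio of Itih4 to Itih3 was 0.437 ± 0.009 at E17.5 and 1.46 ± 0.02 at 2 weeks.

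**Figure D3:**
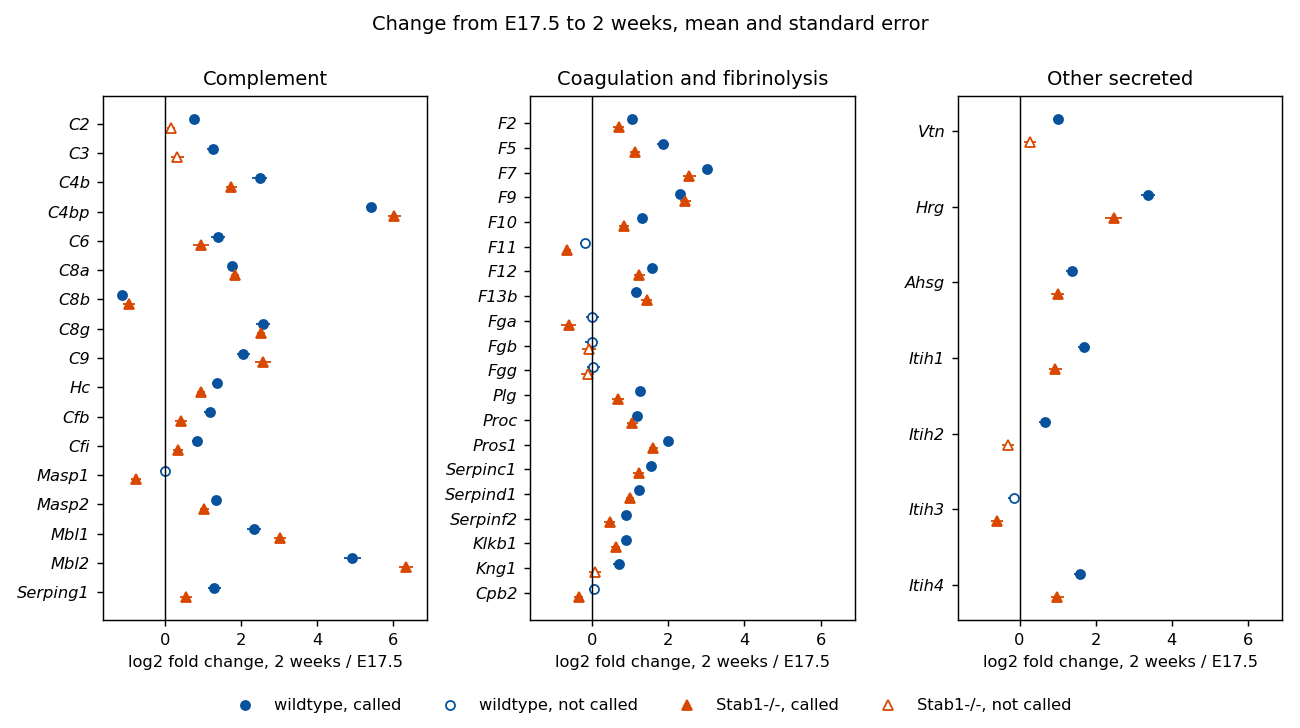
Log2 fold change from E17.5 to 2 weeks with its standard error in wildtype (blue circles) and Stab1-/- (orange triangles), filled where called. C4bp and Mbl2 stand far to the right in both genotypes and C8b to the left, and the open markers include Masp1, F11, Fga, Cpb2 and Itih3 in wildtype and C2, C3, Kng1, Vtn and Itih2 in Stab1-/-.

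Because genes that work together moved by such different amounts, the promoters of the widest movers and of the chains that parted or stayed level are shown, with C8g left out. They are RefSeq sequences of GRCm38.p6, from 250 bases before to 50 bases after the start of transcription, 5′ to 3′ on the gene's strand, and 35 of the 44 members had an entry. Capitals mark matches on either strand to GTTAAT, which is only a part of the HNF1 site, to the C/EBP motif (TTGCNNAA) or to the STAT3 motif (TTCNNNGAA). An HNF1 match below means a match to this part alone. HNF1 and C/EBP are hepatocyte transcription factors, and STAT3 acts in the acute-phase response.
C4bp (chr1:130661569-130661868, minus strand): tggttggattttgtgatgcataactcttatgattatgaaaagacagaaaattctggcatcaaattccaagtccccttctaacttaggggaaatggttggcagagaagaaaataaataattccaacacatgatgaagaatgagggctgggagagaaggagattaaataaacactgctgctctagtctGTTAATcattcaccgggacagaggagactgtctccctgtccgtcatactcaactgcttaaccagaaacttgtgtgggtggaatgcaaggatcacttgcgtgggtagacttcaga
Mbl2 (chr19:30232678-30232977, plus strand): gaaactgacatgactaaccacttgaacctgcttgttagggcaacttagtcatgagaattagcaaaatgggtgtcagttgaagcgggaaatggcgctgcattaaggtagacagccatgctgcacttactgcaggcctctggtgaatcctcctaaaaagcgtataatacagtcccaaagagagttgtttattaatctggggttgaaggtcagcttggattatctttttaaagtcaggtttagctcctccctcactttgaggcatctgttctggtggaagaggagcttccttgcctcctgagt
C8a (chr4:104876349-104876648, minus strand): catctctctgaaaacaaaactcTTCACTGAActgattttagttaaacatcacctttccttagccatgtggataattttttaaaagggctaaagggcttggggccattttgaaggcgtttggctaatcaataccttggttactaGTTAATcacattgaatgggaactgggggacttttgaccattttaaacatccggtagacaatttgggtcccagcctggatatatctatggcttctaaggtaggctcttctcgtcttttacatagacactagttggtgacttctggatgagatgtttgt
C8b (chr4:104766067-104766366, plus strand): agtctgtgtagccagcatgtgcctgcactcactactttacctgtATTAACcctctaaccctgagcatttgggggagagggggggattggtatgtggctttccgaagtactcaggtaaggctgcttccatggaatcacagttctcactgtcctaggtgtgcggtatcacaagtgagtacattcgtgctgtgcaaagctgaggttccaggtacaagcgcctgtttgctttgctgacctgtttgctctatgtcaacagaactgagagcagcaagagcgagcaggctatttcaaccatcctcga
Fga (chr3:83025903-83026202, plus strand): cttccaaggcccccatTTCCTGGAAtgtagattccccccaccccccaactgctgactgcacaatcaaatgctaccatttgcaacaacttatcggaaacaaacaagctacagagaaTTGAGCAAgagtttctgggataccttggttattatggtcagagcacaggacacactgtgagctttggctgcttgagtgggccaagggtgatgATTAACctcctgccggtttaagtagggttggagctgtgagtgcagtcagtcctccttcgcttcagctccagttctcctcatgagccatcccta
Fgb (chr3:83049814-83050113, minus strand): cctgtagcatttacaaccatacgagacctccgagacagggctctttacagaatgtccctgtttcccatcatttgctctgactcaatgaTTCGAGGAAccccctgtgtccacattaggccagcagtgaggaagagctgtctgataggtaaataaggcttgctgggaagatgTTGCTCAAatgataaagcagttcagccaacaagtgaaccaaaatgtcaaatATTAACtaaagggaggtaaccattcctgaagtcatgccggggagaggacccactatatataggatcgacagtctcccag
Fgg (chr3:83007474-83007773, plus strand): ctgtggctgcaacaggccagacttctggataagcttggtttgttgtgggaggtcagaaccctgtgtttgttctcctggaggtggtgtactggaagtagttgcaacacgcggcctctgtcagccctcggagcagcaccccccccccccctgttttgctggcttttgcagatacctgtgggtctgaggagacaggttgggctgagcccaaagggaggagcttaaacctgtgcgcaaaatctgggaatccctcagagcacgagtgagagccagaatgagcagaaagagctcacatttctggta
The window of C4bp held 1 HNF1 match, 64 bases before the start, and the window of Mbl2, the other gene with a rise over 30-fold, held no match to the 3 motifs. C8a and C8b, which moved in opposite directions, each held 1 HNF1 match, 107 and 206 bases before the start, and C8a held a STAT3 match as well. The windows listed for C8g, the C8 chain with the largest rise, held no match to the 3 motifs. Fga and Fgb each held all 3 motifs and Fgg none. Over the 36 promoters listed for members, 27.8% held the partial HNF1 motif, 33.3% the C/EBP motif and 22.2% the STAT3 motif. Of the 32851 promoters in the table, 7.10%, 10.8% and 8.30% held them. A match is a run of letters in this window and was not tested for binding. No link between matches and fold changes was tested.

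The same comparison in Stab1-/- livers gave 31 members called higher and 6 lower at 2 weeks, with a median log2 fold change of 0.95. Over all 13433 genes tested, 72.5% were called, 35.7% higher and 36.8% lower. Of the 44 genes, 32 were called in both genotypes, all 32 in the same direction. The share of all genes called in both was not computed, but 71.9% were called in wildtype and 72.5% in Stab1-/-. The count of 32 is therefore no trait particular to the members. The erythroid and megakaryocyte markers were again all called lower at 2 weeks. C4bp rose from 3.13, 4.57 and 3.96 RPKM in the 3 fetal livers to between 206 and 229 RPKM at 2 weeks (6.02 ± 0.17), and Mbl2 from 5.42, 8.05 and 7.24 RPKM to between 428 and 563 RPKM (6.33 ± 0.18). Hrg and F7 rose by 2.47 and 2.56, and C8b was lower again, by -0.93 ± 0.15. The members called lower in Stab1-/- beside C8b were Masp1 (-0.75), F11 (-0.65), Fga (-0.61), Itih3 (-0.59) and Cpb2 (-0.36), and none of these 5 was called in wildtype with TMM scaling, while all but Fga were called lower there with library totals. C2, C3, Kng1, Vtn and Itih2 were called higher in wildtype and not in Stab1-/-. Whether these changes with age differed between genotypes is a question of the interaction term, given further on. Fga was not called without Stab1-/- fetal replicate 2, Cpb2 was not called without that library or without Stab1-/- replicate 2 or 3 at 2 weeks, and Cfb and Cfi, at log2 fold changes of 0.44 and 0.36, were not called without 4 of the 7 libraries in turn. Scaling by library totals moved the median of all genes to -0.24 and left 34 members called, 27 higher and 7 lower (72.2% of all genes).

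Stab1-/- and wildtype livers were then compared at 2 weeks. Most of the genes had values a little below wildtype in the knockout, and C3 was the only one called. The log2 fold change was below 0 for 35 of the 44 genes (79.5%), with a median of -0.24, beside 52.0% and a median of -0.01 over the 12716 genes tested. Calls covered 2.67% of all genes, and 1 of 44 members is close to that share. At an unadjusted p under 0.05 there were 16 members. The medians of the complement, coagulation and other secreted genes were -0.21, -0.25 and -0.42. Of the members, 6 had each Stab1-/- library below each wildtype library (4.5% of all genes) and 2 had each above (10.4% of all genes). The 12 hepatocyte markers lay on the same side, 9 of 12 below 0 with a median of -0.20 and none called. The 10 endothelial markers, which do not include Stab1, had 9 of 10 below 0 with a median of -0.23 and 1 called lower, and the 11 macrophage markers had a median of 0.01 with none called. The part of these in the members' shift was not tested.

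C3 stood at 1574, 1501, 1922 and 1870 RPKM in the 4 wildtype livers at 2 weeks and at 1002, 1151, 1172 and 1286 RPKM in the 4 Stab1-/- livers. The groups did not overlap. The log2 fold change was -0.67 ± 0.15 (adjusted p = 0.0430). A two-sided exact permutation test of the RPKM values gave p = 0.0286, the smallest that 70 assignments allow. Every gene without overlap gets this value, 4.5% of all genes below wildtype and 10.4% above. It therefore adds nothing to the lack of overlap. The call was narrow. It was lost when Stab1-/- replicate 1, 2 or 3 (adjusted p = 0.111, 0.109 and 0.0969) or wildtype replicate 3 or 4 (0.110 and 0.0855) was left out, with log2 fold changes between -0.66 and -0.58. DESeq2, limma, library totals and GC-content offsets each called it.

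The genes that work next to C3 lay on the same side. Cfb stood at 502, 512.5, 628 and 719 RPKM in wildtype and at 343, 474, 418 and 471 RPKM in Stab1-/- (-0.56 ± 0.17, adjusted p = 0.0883), with no overlap. C4b and C2 had log2 fold changes of -0.37 and -0.23 and overlapped, neither being called (adjusted p = 0.191 and 0.269). The Itih genes were below wildtype too, 4 of 4 with a median of -0.48 and none called. Itih2 stood at 723, 816.5, 1010 and 1012 RPKM in wildtype and at 513, 682, 687 and 653 RPKM in Stab1-/-, which did not overlap (-0.59 ± 0.16, adjusted p = 0.0747). Itih1 had a log2 fold change of -0.55 ± 0.18 (adjusted p = 0.107) and Itih4 of -0.42 ± 0.17 (adjusted p = 0.167). Itih1, Itih3 and Itih4 lie 196, 215 and 237 kb from Stab1 on chromosome 14, and Itih2 lies on chromosome 2. Mbl1 and Cpb2 are on chromosome 14 as well, 9983 and 44074 kb from Stab1. The part of position in these values was not tested. Vtn, Masp1, Cpb2 and Kng1 had log2 fold changes of -0.48, -0.47, -0.40 and -0.39, with adjusted p of 0.108, 0.0971, 0.0844 and 0.142.

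A few members stood higher in the knockout at 2 weeks without passing the test. Mbl1 stood at 250.8, 243, 194.5 and 143 RPKM in wildtype and at 408, 264.5, 285 and 277 RPKM in Stab1-/- (0.48 ± 0.17, adjusted p = 0.120). C8b stood at 51.0, 52.0, 55.8 and 51.5 RPKM in wildtype and at 86.1, 57.7, 74.4 and 70.0 RPKM in Stab1-/- (0.36 ± 0.12, adjusted p = 0.104), and neither gene's groups overlapped. C9 followed at 42.9 ± 8.4 and 62.9 ± 13.3 RPKM (0.46 ± 0.19, adjusted p = 0.171), with overlap. DESeq2 called 7 members, C3 lower with Cfb, Cpb2, Vtn, Itih1 and Itih2, and C8b higher, and it called 7.11% of all genes. All members of the vitamin K dependent group, the contact system, the clotting inhibitors and fibrinolysis had log2 fold changes below 0, between -0.40 and -0.05, and none was called.

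The chains of fibrinogen had unlike values at 2 weeks. Fga had a log2 fold change of -0.34 ± 0.16, Fgb of 0.10 ± 0.13 and Fgg of 0.01 ± 0.13, with no call. The ratio of Fgb to Fga was 2.36, 2.10, 2.06 and 1.81 in the wildtype livers and 3.18, 2.68, 2.88 and 2.52 in the Stab1-/- livers, which did not overlap, and it was 2.09 ± 0.17 and 1.93 ± 0.13 at E17.5. No test was run on the ratio. Transcript GC content was 49.3% for Fga, 44.1% for Fgb and 42.7% for Fgg, and over all genes the log2 fold change at 2 weeks fell with GC content (Spearman's rho = -0.343, taken across 12647 genes, and genes share libraries and are no replicates). With GC-content offsets the log2 fold changes of Fga, Fgb and Fgg were -0.29, 0.02 and -0.12.

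**Figure D4:**
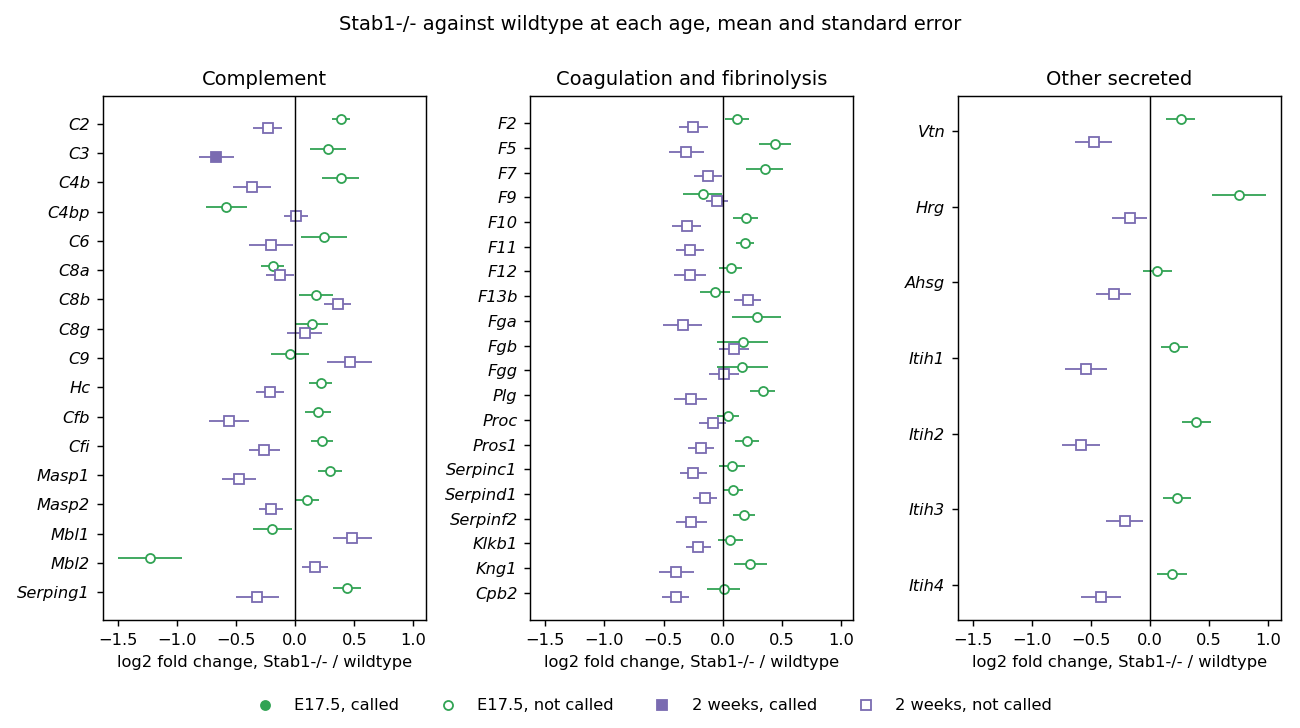
Log2 fold change of Stab1-/- against wildtype with its standard error at E17.5 (green circles) and at 2 weeks (purple squares), filled where called. C3 at 2 weeks is the only filled marker, most genes lie below 0 at 2 weeks and above 0 at E17.5, and Mbl2 and C4bp lie below 0 at E17.5.

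At E17.5 no member was called in Stab1-/- against wildtype by edgeR, beside 0.366% of the 13388 genes tested. DESeq2 called 5 (C2, Serping1, Plg and Itih2 higher and Mbl2 lower) and 1.64% of all genes, limma called 0 members, and 13 had an unadjusted p under 0.05. The values lay on the other side from those at 2 weeks, with 37 of 44 log2 fold changes above 0 and a median of 0.19, beside 0.00 over all genes. The number below 0 was 7, beside 10 with library totals, 11 by limma and 16 without Stab1-/- replicate 2. The medians of the complement, coagulation and other secreted genes were 0.19, 0.17 and 0.23. The hepatocyte markers had a median of 0.19, with 10 of 12 above 0 and none called. The endothelial markers had a median of 0.16 with 8 of 10 above 0, and the megakaryocyte markers a median of -0.17 with 9 of 10 below 0, none of them called. The part of these in the members' shift was not tested. Each Stab1-/- library stood above each wildtype library for 3 members, C2, Cfi and Plg (2.91% of all genes), and below for 2, Mbl2 and C4bp (9.3% of all genes).

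Mbl2 had the largest log2 fold change in size among the members. The 4 wildtype fetal livers had 17.1, 25.0, 14.6 and 10.9 RPKM and the 3 Stab1-/- livers 5.42, 8.05 and 7.24 RPKM, with no overlap (-1.23 ± 0.27, adjusted p = 0.123). C4bp stood at 5.57, 7.11, 5.23 and 6.45 RPKM and at 3.13, 4.57 and 3.96 RPKM (-0.58 ± 0.17, adjusted p = 0.226). The 2 genes with the widest rise after this age were thus both lower in the Stab1-/- fetal livers, though not beyond the adjusted threshold. C2 stood at 31.8, 29.8, 31.3 and 35.1 RPKM in wildtype and at 43.2, 39.4 and 37.9 RPKM in Stab1-/- (0.39 ± 0.08, adjusted p = 0.0934). Hrg, F5 and Serping1 had log2 fold changes of 0.75 ± 0.23, 0.44 ± 0.14 and 0.44 ± 0.12, with adjusted p of 0.235, 0.235 and 0.185. Stab1-/- replicate 2 was the highest fetal library for Hrg, C3, Vtn and each fibrinogen chain, with 4179 RPKM of Fgb beside 2854 and 2650 RPKM in the other Stab1-/- livers. Without it, the members' median log2 fold change was the lowest of those that leave out 1 library, at 0.07.

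The genotype difference itself was compared between ages with an interaction term fitted to all 15 libraries, the same term that asks whether the change with age differed between genotypes. It was called for 3 members, beside 1.81% of the 13885 genes tested. DESeq2 called 17 members and 8.34% of all genes. C3 (-0.90 ± 0.22, adjusted p = 0.0482) and Itih2 (-0.94 ± 0.22, adjusted p = 0.0431) were lower in Stab1-/- relative to wildtype at 2 weeks than at E17.5, and Mbl2 (1.43 ± 0.29, adjusted p = 0.0307) was higher. At E17.5 C3 stood at 923.9, 797.9, 1032 and 935.6 RPKM in wildtype and at 1136, 1234 and 836 RPKM in Stab1-/-, which overlapped. Itih2 stood at 719, 641, 723 and 815 RPKM in wildtype fetal livers and at 917.6, 1012 and 796 RPKM in Stab1-/-, and so its knockout livers lay mostly above wildtype at E17.5 and all below it at 2 weeks. Mbl2, lower in the knockout at E17.5, stood at 454.6, 447.6, 362 and 340.0 RPKM in wildtype and at 563, 466, 463 and 428 RPKM in Stab1-/- at 2 weeks, with overlap.

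**Figure D5:**
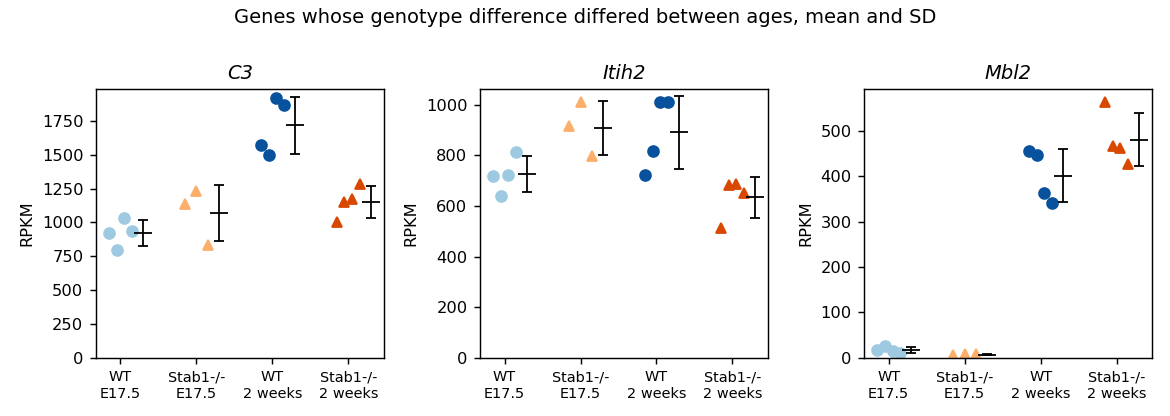
RPKM of C3, Itih2 and Mbl2 in each library, with the mean and SD beside each group. At 2 weeks C3 does not overlap between genotypes and at E17.5 it does, Itih2 changes sides between the ages, and Mbl2 is near the base of the axis in all fetal livers, at 5.42 to 25.0 RPKM.

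These 3 calls were close to the threshold. Mbl2 was called under 17 of 23 alternatives (adjusted p from 0.000262 to 0.0879), Itih2 under 13 (0.00138 to 0.105) and C3 under 9 (0.00239 to 0.114), with the same direction in all. Of the 15 fits that leave out 1 library, those without Stab1-/- replicate 1 or 2 or wildtype replicate 3 at 2 weeks, or without Stab1-/- replicate 1 or wildtype replicate 1 or 2 at E17.5, called none of the 44 genes. Without Stab1-/- replicate 3 or wildtype replicate 4 at 2 weeks, or Stab1-/- replicate 2 at E17.5, Mbl2 was the only one called (adjusted p = 0.0431, 0.0466 and 0.0333). Itih2 was not called without wildtype replicate 3 at E17.5 (adjusted p = 0.0542), and C3 was not called without wildtype replicate 4 at E17.5 (adjusted p = 0.0571). Of the members called with age in 1 genotype alone, none but C3 and Itih2 passed the interaction test. Masp1 (-0.73, adjusted p = 0.0605), C2 (-0.59, 0.0563), Vtn (-0.70, 0.0813), F11 (-0.43, 0.1), Kng1 (-0.59, 0.125), Fga (-0.59, 0.226), Cpb2 (-0.38, 0.254) and Itih3 (-0.41, 0.262) did not. Over the whole list the interaction was below 0 for 36 of 44 genes with a median of -0.40, beside 0.01 over all genes, and 24 members had an unadjusted p under 0.05. The hepatocyte markers had a median of -0.35 with 11 of 12 below 0 and none called, and the endothelial markers a median of -0.39 with 8 of 10 below 0 and 1 called lower, and their part in the members' shift was not tested. With library totals the median of all genes was 0.12 and that of the members -0.28.

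The other genes of both pathways served for comparison. Of 25 further complement genes, such as the C1q subunits, 20 could be tested at 2 weeks and 22 at E17.5, and none was called between genotypes, with medians of 0.05 and 0.02. Of 25 further genes of coagulation and protease control, 22 and 25 could be tested, with medians of -0.10 and 0.09. The only one called was Plau, the urokinase that activates plasminogen, at 2 weeks. It stood at 1.88, 1.98, 2.13 and 1.60 RPKM in wildtype and at 0.995, 1.01, 1.06 and 1.36 RPKM in Stab1-/- (-0.86, adjusted p = 0.0422), low levels with at most 53 reads in a library at this age. With age in wildtype, 12 of 22 complement genes were called higher and 4 lower, and 10 of 25 coagulation genes were called higher and 6 lower, with medians of 0.50 and 0.23. Fcnb, a ficolin of the myeloid lineage that was picked after its values were seen, was lower at 2 weeks by -7.68 in wildtype and -5.70 in Stab1-/-. It was the only gene of these 2 lists called in the interaction test (2.00, adjusted p = 0.0345). The 20 complement genes tested at 2 weeks had genotype log2 fold changes of at most 0.94, and the 22 at E17.5 of at least -0.90. An interaction of 2.00 lies beyond these limits, so Fcnb appears to have had too few reads to be tested at 2 weeks. Its call therefore gives no measured genotype difference at that age.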

How the data were processed

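Total RNA of mouse liver was sequenced as Illumina libraries, and the authors deposited 1 table with read counts and RPKM values for each gene and library. The aligner, counter, genome build and strand setting are not given in the sources used here. RPKM values computed here from the deposited counts, gene lengths and library totals matched the deposited RPKM. The 44 members and the gene lists were chosen with earlier results of these data known.

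Counts were tested with edgeR 4.0.16 (R 4.3.3): TMM scaling, filterByExpr (count at least 10, total at least 15), and the quasi-likelihood test with Benjamini-Hochberg adjustment over all genes, called under 0.05. Each comparison was fitted on its own groups and the interaction on all 15 libraries. The alternatives were DESeq2 1.42.0, limma 3.58.1 on log2(RPKM + 0.1) and log2(RPKM + 1), library totals, no filter, a replicate block, GC-content offsets, 1 fit over all libraries, and leaving out each library. The scripts were tested on simulated data. Any member may be named, with Stab1 and those other pathway genes called between genotypes, and Fcnb was named after its values were seen. Standard errors are those of the fit and SDs are over libraries. Gene positions and GC content came from GENCODE on GRCm38, matched by gene ID, or by symbol where no ID matched, for 98.6% of rows, and they are not taken from the authors' build. The deposited column of gene coverage in percent entered no test.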

Additional observations from a re-analysis of the deposited data

Results flagged for a closer look

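Among 132 groups of 4 libraries (each member in each group of that size), 7 held a library far from the others, where chance gives about 1 in 20, or 6.6. The groups of 3 were not examined. C8b stood at 123 RPKM in wildtype replicate 4 at E17.5, with 152 RPKM the next, and the same library had the lowest Fgg, 1777 RPKM beside 2776. Fgg was also high in wildtype replicate 3 at 2 weeks, with 2496 RPKM beside 1965. In Stab1-/- at 2 weeks, replicate 1 had 408 RPKM of Mbl1 beside 285 and the lowest Ahsg, 17503 RPKM beside 20851. Replicate 3 of that group had 51.5 RPKM of F11 beside 45.2 and 81.3 RPKM of Klkb1, its neighbouring gene, beside 70.6.

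The difference between Stab1-/- and wildtype itself differed between ages for 3 members by the interaction test, with log2 values at 2 weeks relative to E17.5 of -0.90 for C3, -0.94 for Itih2 and 1.43 for Mbl2.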

How the results depend on the processing

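At 2 weeks, 1 member was called between genotypes, and DESeq2 called 7, all libraries in one fit 3, and fits without 1 library 0 to 2, while over all genes the calls were 340, 887 and 703 in the first 3 of these. At E17.5, 0 members were called, and DESeq2 called 5 and all libraries in one fit 1, beside 49, 219 and 69 over all genes. The interaction was called for 3 members, by DESeq2 for 17 (251 and 1066 over all genes, or 8.34% by DESeq2), without the low-count filter for 2, with library totals or limma for 3 or 4, and without 1 library for 0 to 6. Replicate numbers are shared between groups. At 2 weeks the 4 same-numbered pairs of libraries deviated weakly together, with correlations from 0.014 to 0.194. Their mean was 0.131, beside -0.044 for other pairs, and 5 of 8 libraries were nearest their own number. At E17.5 the mean was -0.100, beside 0.033 for other pairs, and 0 of 7 were nearest their own number. With a replicate block, 7 members were called at 2 weeks, 1 at E17.5 and 6 for the interaction (1181, 23 and 591 over all genes), and with the replicate block and GC-content offsets 8, 1 and 6 (756, 32 and 381).

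Changes of sign were followed for all members with age. Between genotypes and for the interaction they were followed only for log2 fold changes called or at least 0.3 in size. Smaller ones also changed sign, as members below 0 at E17.5 ranged from 5 to 16 without 1 library. The changes of sign listed here concerned log2 fold changes that were not called in the main fit. With age in wildtype, Masp1 was -0.0029 with the replicate block, -0.0067 in one fit, -0.3634 with library totals and -0.3648 and -0.3523 by limma with the smaller and larger pseudocount, and from -0.0969 to 0.1347 without 1 library. In the same order from the one fit on, Fga was -0.006, -0.3576, -0.3486 and -0.3484, and from -0.1139 to 0.125 without 1 library. Fgb was 0.0057 by DESeq2, 0.0059 without the filter, 0.003 with the block, 0.1098 with GC-content offsets and 0.1211 with both, and from -0.1554 to 0.0686 without 1 library. With library totals and by limma, Fgg was -0.329, -0.3073 and -0.3072 (from -0.116 to 0.1092 without 1 library) and Cpb2 was -0.3197, -0.3214 and -0.32 (from -0.0443 to 0.1451). In Stab1-/-, with library totals and by limma, C2 was -0.0636, -0.0641 and -0.0626 and Kng1 was -0.1395, -0.1311 and -0.131 (from -0.0191 to 0.271 without 1 library). Without 1 library, Fgb ranged from -0.208 to 0.1993 and Fgg from -0.2374 to 0.135 in Stab1-/-, both above 0 only without fetal replicate 2. The interaction of F13b was 0.30 in the main fit and -0.0025 with GC-content offsets. Except where the scaling or the libraries left out set them, the cause of these changes was not tested.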
